A study of Homo sapiens with 6 samples.

Results

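The genes described here are 34 genes of glycolysis and the pentose phosphate pathway, chosen by symbol from a list of names: glucose transporters, glycolytic enzymes with their isozymes, the enzymes that set fructose 2,6-bisphosphate, fructose 1,6-bisphosphatase 1, lactate enzymes and transporters, pyruvate dehydrogenase kinases and 5 pentose phosphate enzymes. All 34 were among the 21293 genes of the deposited table, and all 34 were among the 14395 genes with a mean normalized count of at least 10 that were tested. The RNA came from H2087-LCC cells, selected in mice for latent survival out of a human lung adenocarcinoma (LUAD) line, so that every library comes from 1 line that carries the label of a dormant metastatic derivative. The 3 groups of 2 libraries were cells kept for 3 days in SB505124 (SB), which blocks the type I receptor of TGFβ, and cells kept in TGFβ for 3 or 7 days. The design asks how transcripts change from a baseline without TGFβ signaling to an early and a late time of exposure. SB was sampled at 3 days only. In the comparison of 7 days with SB, the effects of TGFβ and of time in culture thus cannot be told apart. The same holds for longer exposure to TGFβ and longer culture in the comparison of 7 with 3 days. The libraries of a group are described as technical replicates, and p-values then measure only the spread between these libraries. In bulk RNA, fewer cells with a transcript and less of it per cell cannot be told apart.

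Glycolysis splits glucose into pyruvate and yields ATP and NADH. Its early steps trap and phosphorylate the sugar, fructose 2,6-bisphosphate sets the pace of the committed step, and the late steps recover the energy. Pyruvate is then reduced to lactate, which leaves the cell with a proton, or enters mitochondria through pyruvate dehydrogenase, which the PDK kinases inhibit. The pentose phosphate pathway draws on glucose 6-phosphate to give NADPH and ribose. In many carcinomas, including LUAD, glycolytic genes are targets of hypoxia-inducible factors (HIF) and of MYC.

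The normalized counts summed to between 34306283 and 36340734 per library, and the spacing of low values places the assigned reads at an estimated 32000000 to 40000000. The carcinoma label was checked on 8 lung epithelial markers, all of them detected. KRT8 read between 33341 and 42692 in every library, while CDH1 read 371 and 635 in SB, 28 and 24 at 3 days and 10 and 9 at 7 days. Against SB, 5 of the 8 were lower at both times (CDH1, EPCAM, KRT18, SOX2 and NKX2-1), KRT7 was higher at both (log2 fold change 1.50 and 1.06), and KRT8 and KRT19 did not pass. Of 7 immune markers 1 passed the filter, CD68, which read 4368 to 5113 and made up most of their sum of 4383 to 5129. PTPRC, which defines leukocytes, read 0 to 4. The 5 endothelial markers summed to between 158 and 306 counts and the erythroid and platelet markers to between 3 and 11, with HBB and HBA2 at 0. Of the endothelial markers 3 of 5 passed the filter, and they moved apart. TEK rose from 11 and 12 counts in SB to 65 and 58 at 3 days and 115 and 117 at 7 days, KDR fell from 98 and 225 to 26 and 31 and then read 70 and 53, and PECAM1 read 36 to 67 throughout and was higher at 3 days (0.72). Their part in the results was not tested.

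Together the 34 genes took 2.10% of the normalized counts in each SB library, 1.84% and 1.97% at 3 days and 1.95% and 1.81% at 7 days. GAPDH, PKM and ENO1 made up 60.7% to 63.8% of that sum in every library. Per kilobase of annotated exon, the order of the levels in SB was GAPDH (mean 76690), ENO1 (23250), PKM (16640), LDHB (12100) and TPI1 (11410), with PDK4 (14.6) last. PKM stood above ENO1 in both libraries at 3 days (means 21130 and 18160 per kilobase) and again at 7 days (24280 and 15450). On the length of the canonical transcript, chosen as a second scale after the data were examined, the leading 4 genes were the same, and PKM again stood above ENO1 at 3 days (78590 and 53170) and at 7 days (90300 and 45240).

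After 3 days of TGFβ, 12 of the 34 genes passed the threshold against SB (limma, Benjamini-Hochberg adjusted p under 0.05 over all genes tested), 4 higher and 8 lower. Over all genes tested, 29.0% passed, 14.9% higher and 14.0% lower. After 7 days, 19 of the 34 passed, 8 higher and 11 lower, where 54.5% of all genes passed, 27.7% higher and 26.9% lower. Between 7 and 3 days, 18 passed, 8 higher and 10 lower (9 and 7 with upper quartile scaling), where 33.2% of all genes passed, 17.0% higher and 16.2% lower. Against SB, the share of these genes that passed was thus near the share of all genes. The median log2 fold change of the 34 genes was -0.15 at 3 days, -0.13 at 7 days and -0.01 between the times, beside -0.02, -0.00081 and 0.02 for all genes. The pathway did not move as a block: in each comparison some genes were higher and some lower, and the plot of all 34 genes by library shows both. For 5 genes (ALDOC, PDK1, PDK2, PDK3 and SLC16A1) the difference between the times passed with values of opposite sign against SB, where 8.96% of all genes met both conditions. The libraries of the compared groups did not overlap for 23, 27 and 29 of the 34 genes, which is 67.6%, 79.4% and 85.3%, where 63.2%, 77.5% and 69.1% of all genes did not overlap. With 2 libraries a group, an exact permutation test cannot give a two-sided p below 0.333.

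The counts depended on the fit. With no filter on low values, 5 genes passed at 3 days and 4 between the times, and without the trend of the variance on expression 6 and 7 did. The share of all genes that passed in these alternatives is not given. The genes that passed in each of the 15 alternatives were HK1, HK2, PFKFB4, FBP1 and ENO2 at 3 days, and HK2, PFKFB4, FBP1 and RPIA between the times. At 7 days they were SLC2A1, HK1, HK2, GPI, TPI1, PFKFB3, PFKFB4, FBP1, ENO1, PKM, LDHB and RPIA, and PDK4 in the 14 that could be run for it, since its mean lay under the stricter filter. Between the times, 10 genes passed without TGFβ 3-day library 1, 10 without TGFβ 7-day library 1 and 9 without TGFβ 7-day library 2. PFKL, PFKM, PFKFB2, PGK1, PGAM1, LDHA, SLC16A3, PGLS, RPE, TKT and TALDO1 passed in no comparison of the fit reported here. Of these, only PGK1 and RPE passed in no alternative either, and each of the others passed a comparison in some alternative.

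**Figure D1:**
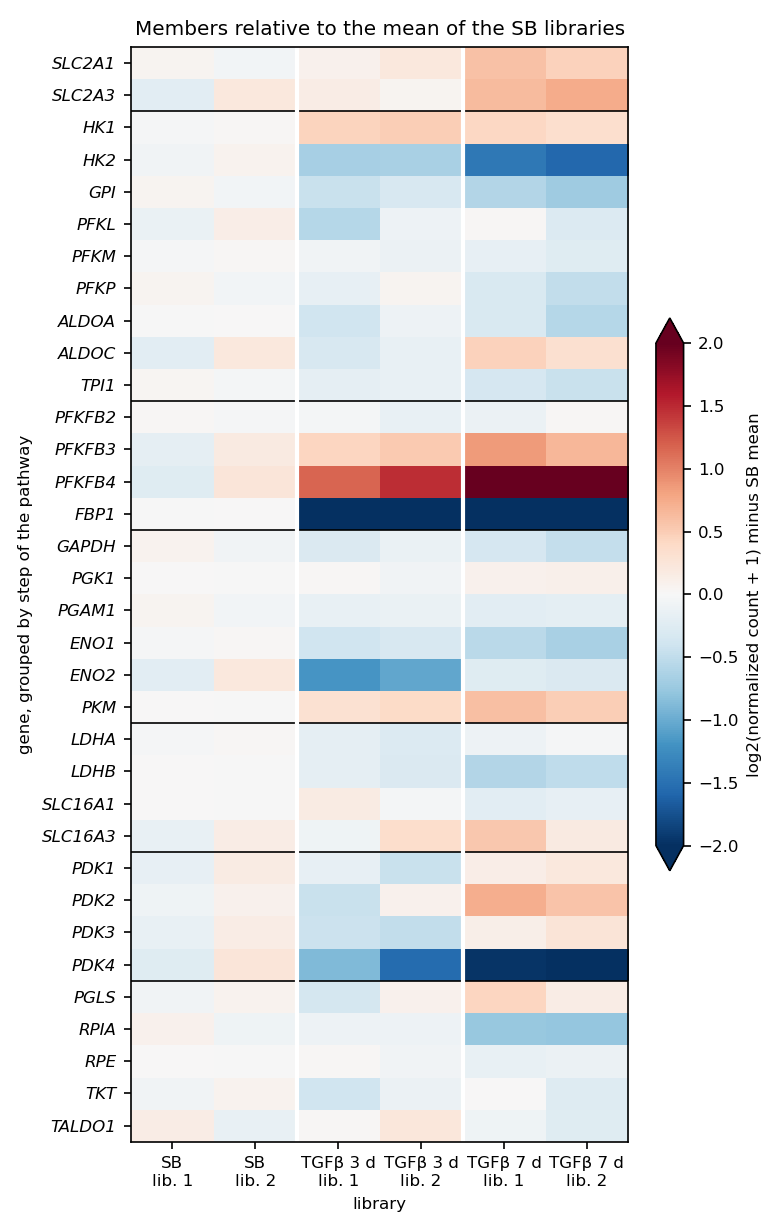
Each row is 1 of the 34 genes, grouped by step, and each column 1 of the 6 libraries, with the color giving log2(normalized count + 1) minus the mean of the SB libraries (the scale is capped at 2 and -2). PFKFB4 is red in all 4 TGFβ libraries, while FBP1, HK2 and PDK4 are blue in all 4.

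**Figure D2:**
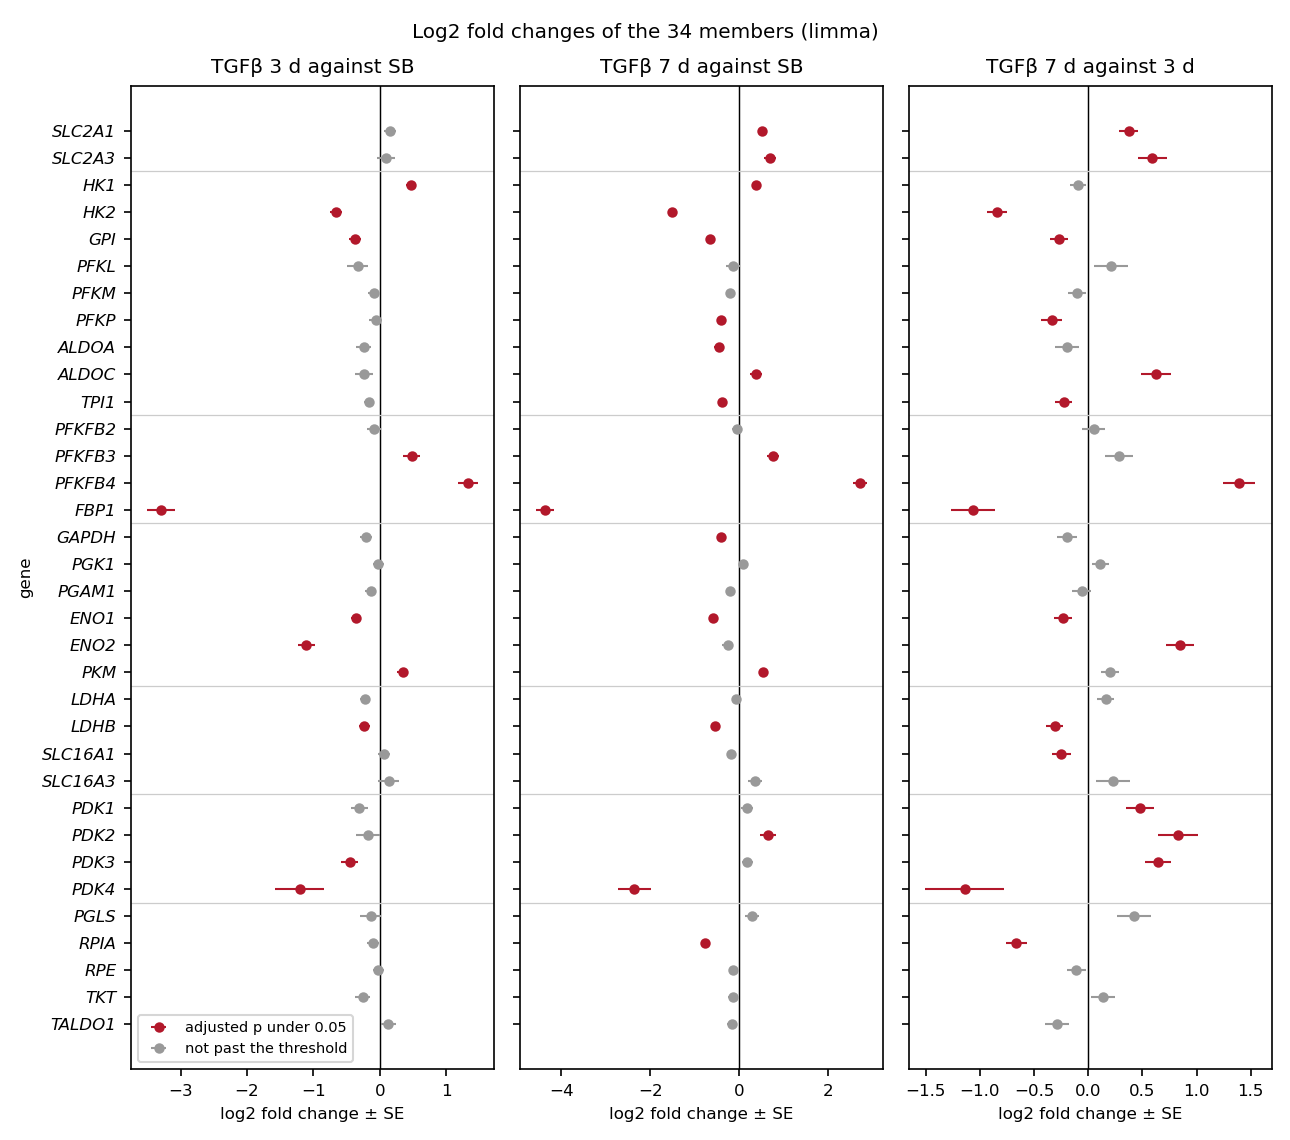
Points show the log2 fold change of each gene with its standard error from limma for the 3 comparisons, each panel with its own axis, red where the adjusted p was under 0.05. FBP1 (-3.29 and -4.36 against SB) and PFKFB4 (1.32 and 2.72) lie at the ends, and most other genes lie within 1 unit of 0.

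PFKFB4, FBP1 and HK2 had the calls that held in every alternative and comparison, so the sequence around the annotated start of each is shown, as RefSeq gives it for GRCh38.p14. Each runs 5′ to 3′ on the strand of the gene, from 250 bases before the start to 50 bases after it. Capitals mark the HIF core motif, ACGTG or GCGTG on either strand.
PFKFB4: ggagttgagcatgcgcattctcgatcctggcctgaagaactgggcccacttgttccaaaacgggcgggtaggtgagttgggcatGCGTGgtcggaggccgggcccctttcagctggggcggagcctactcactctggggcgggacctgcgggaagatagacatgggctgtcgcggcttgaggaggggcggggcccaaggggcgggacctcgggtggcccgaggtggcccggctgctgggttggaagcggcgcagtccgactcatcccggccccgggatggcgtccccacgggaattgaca
FBP1: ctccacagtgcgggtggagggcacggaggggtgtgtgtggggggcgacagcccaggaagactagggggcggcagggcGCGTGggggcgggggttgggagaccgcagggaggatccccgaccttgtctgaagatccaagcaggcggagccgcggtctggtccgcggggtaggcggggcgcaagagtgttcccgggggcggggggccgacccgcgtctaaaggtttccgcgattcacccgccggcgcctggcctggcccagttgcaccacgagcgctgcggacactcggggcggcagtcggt
HK2: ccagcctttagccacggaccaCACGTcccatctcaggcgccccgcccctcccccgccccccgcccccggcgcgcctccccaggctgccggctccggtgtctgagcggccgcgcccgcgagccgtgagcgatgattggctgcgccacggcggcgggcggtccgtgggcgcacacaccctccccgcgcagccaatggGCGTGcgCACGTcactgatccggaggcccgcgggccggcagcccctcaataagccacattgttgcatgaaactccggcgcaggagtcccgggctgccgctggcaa
The PFKFB4 window lies at chr3:48556754-48557053 on the minus strand, the FBP1 window at chr9:94639469-94639768 on the minus strand and the HK2 window at chr2:74833877-74834176 on the plus strand. PFKFB4 held 1 match at -166 from the start, FBP1 1 at -173 and HK2 3, at -229, -55 and -48. A match was thus present in a gene that rose and in genes that fell. Windows were given for 31 of the 34 genes, and 18 of these 31 (58.1%) held the HIF core, where 48.4% of 35116 windows did. For each of the 31 genes 1 window was read. The 35116 were all windows of the source, whether or not the gene was tested here. The E-box CACCTG, read by repressors such as SNAIL and ZEB, was in 6 of 31 (19.4%), where 20.6% of all windows held it, and CACGTG, the MYC E-box, which contains ACGTG and so overlaps the HIF core, in 3 of 31 (9.68%) against 7.26%. These matches are letters in a window and not binding sites.

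Of the 4 enzymes that set the balance between fructose 6-phosphate and fructose 1,6-bisphosphate, PFKFB4 and FBP1 had the largest log2 fold changes of the 34 genes against SB, up and down, while PFKFB3 changed less and PFKFB2 did not pass. PFKFB4, a bifunctional enzyme that makes and breaks down fructose 2,6-bisphosphate, read 478 and 665 in SB, 1267 and 1577 at 3 days and 3653 and 3774 at 7 days. The 3 groups did not overlap. The mean rose 2.49-fold at 3 days (log2 fold change 1.32 ± 0.15 SE, adjusted p = 4.27e-05) and 6.50-fold at 7 days (2.72 ± 0.15, adjusted p = 4.61e-08), and it rose 2.61-fold between the times (adjusted p = 7.52e-05). PFKFB4 lies on GRCh37 chromosome 3, positions 48555117 to 48599448, and its exons overlap those of UCN2. The library kit did not keep the strand, so reads of the shared bases cannot be assigned to one gene.

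PFKFB3, the isozyme with the highest ratio of kinase to phosphatase activity, read 886 and 1139 in SB, 1354 and 1451 at 3 days and 1816 and 1599 at 7 days. Its rise was 0.48 ± 0.13 on the log2 scale by 3 days (adjusted p = 0.0147) and 0.76 ± 0.13 by 7 days (adjusted p = 0.000355), and between the times its value was 0.28 (adjusted p = 0.11). The rise at 3 days was lost without SB library 1 (adjusted p = 0.0931) or TGFβ 3-day library 2 (0.0706). PFKFB2, the heart-type isozyme, read 854 to 960 over the 6 libraries and passed in no comparison of the fit reported here. It passed at 7 days after correction for GC content and exon length (-0.20, adjusted p = 0.0428). Within a library, PFKFB3 read 1.85 and 1.71 times PFKFB4 in SB and 0.497 and 0.423 times PFKFB4 at 7 days, so the order of the pair turned over, on the counts as deposited and also per kilobase of canonical transcript (1.45 and 1.34 in SB, 0.388 and 0.331 at 7 days).

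FBP1, fructose 1,6-bisphosphatase 1, which reverses the committed step in gluconeogenesis, read 518 and 519 in SB, 54 and 50 at 3 days and 27 and 22 at 7 days. Its mean was 9.97-fold lower at 3 days (log2 fold change -3.29 ± 0.20, adjusted p = 2.86e-07) and 21.2-fold lower at 7 days (-4.36 ± 0.20, adjusted p = 1.20e-08). It also fell between the times, by 1.06 on the log2 scale (adjusted p = 0.00256). FBP1 shares exon bases with the noncoding gene PCAT7 on chromosome 9, positions 97365415 to 97402531 of GRCh37. The epithelial markers named above divided in the same comparisons, with CDH1 among the 5 lower and KRT7 higher, and whether FBP1 is linked to them was not tested.

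**Figure D3:**
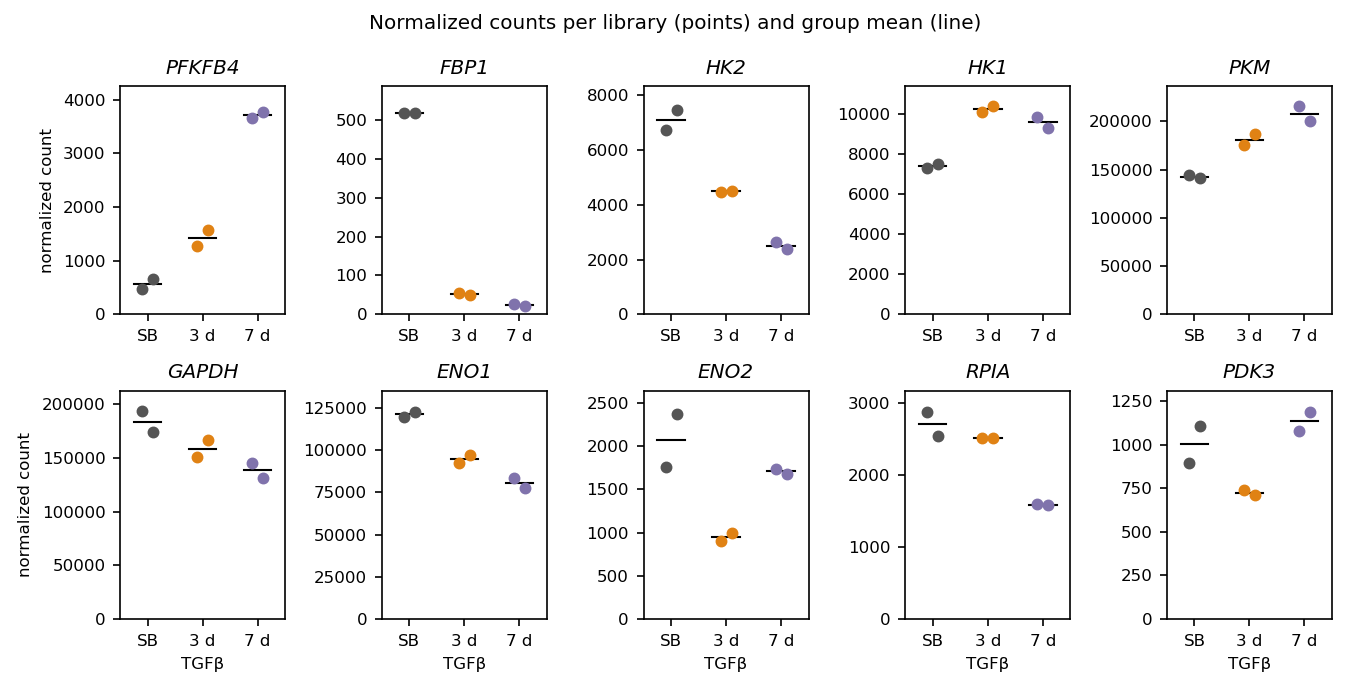
Points are the normalized counts of single libraries and lines the group means for 10 of the genes, each panel on a linear axis from 0. The 3 groups are separate for PFKFB4, FBP1, HK2, HK1, PKM, GAPDH, ENO1 and RPIA, and ENO2 and PDK3 have their lowest values at 3 days.

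Both glucose transporters among the 34 genes were higher at 7 days, and neither passed at 3 days. SLC2A1 (GLUT1), the main basal glucose transporter, read 7473 and 6987 in SB, 7658 and 8406 at 3 days and 10843 and 9935 at 7 days. The 3-day value against SB was 0.15 (adjusted p = 0.219), and SLC2A1 rose at 7 days by 0.52 ± 0.09 (adjusted p = 0.000339). The difference between the times passed too (0.37, adjusted p = 0.00737), and was lost without TGFβ 3-day library 1 (adjusted p = 0.0764) or TGFβ 7-day library 1 (0.0949). SLC2A3 (GLUT3), a transporter of high affinity, read 715 and 965 in SB, 916 and 863 at 3 days and 1293 and 1389 at 7 days. The SB and 3-day values overlapped and the 7-day values stood above both. It rose at 7 days against SB (0.69 ± 0.14, adjusted p = 0.00115) and against 3 days (0.59, adjusted p = 0.0069; 0.0632 without TGFβ 7-day library 2).

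The hexokinases, which trap glucose as glucose 6-phosphate, moved in opposite directions. HK2, the inducible isozyme, read 6723 and 7467 in SB, 4457 and 4519 at 3 days and 2622 and 2389 at 7 days. Its log2 level dropped by 0.66 in 3 days (adjusted p = 0.000176) and by 1.50 in 7 days (SE 0.09, adjusted p = 8.39e-08), a mean 2.83-fold lower. HK1, the constitutive isozyme, read 7286 and 7496 in SB, 10090 and 10396 at 3 days and 9870 and 9310 at 7 days, and rose 1.39-fold (adjusted p = 0.000777) and 1.30-fold (adjusted p = 0.0016). Between the times HK2 fell again (-0.84, adjusted p = 6.92e-05), and the value of HK1 was -0.10 (adjusted p = 0.374). On canonical length, HK2 stood at 0.591 and 0.638 times HK1 in SB. This ratio was 0.283 and 0.278 at 3 days and 0.170 and 0.164 at 7 days. Per kilobase of all annotated exons, HK2 stood above HK1 in both SB libraries (1136 and 1262 against 1060 and 1090). On that scale HK2 stood below HK1 in both libraries at 3 days and at 7 days. The order of the pair in SB thus depended on the length used. The log2 ratio of HK2 to HK1 fell by 1.88 from SB to 7 days, where the widest gap between libraries of a group was 0.11.

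Of the 7 genes from glucose 6-phosphate to the triose phosphates, 4 were lower at 7 days (GPI, PFKP, ALDOA and TPI1) and 1 higher (ALDOC), where 26.9% of all genes were lower. Without TGFβ 7-day library 2, 2 of the 7 were lower. With the hexokinases included, 1 of 9 was higher and 2 were lower at 3 days, 2 were higher and 5 lower at 7 days, and 1 was higher and 4 lower between the times. Those that passed were 33.3%, 77.8% and 55.6% of the 9, where 29.0%, 54.5% and 33.2% of all genes passed. The number lower at 3 days was 4 without TGFβ 3-day library 2. The number lower between the times was 1 without TGFβ 3-day library 2 or TGFβ 7-day library 2, and 2 without TGFβ 3-day library 1 or TGFβ 7-day library 1. GPI, the isomerase of glucose 6-phosphate, read 13383 and 12362 in SB, 9495 and 10341 at 3 days and 8571 and 7863 at 7 days. It fell at 3 days (log2 fold change -0.38 ± 0.09, adjusted p = 0.00657) and at 7 days (-0.65 ± 0.09, adjusted p = 6.49e-05). The 3-day fall was lost without TGFβ 3-day library 1 (adjusted p = 0.0743). TPI1, triose phosphate isomerase, read 31531 and 30076 in SB, 27132 and 27922 at 3 days and 24302 and 22699 at 7 days, and fell at 7 days (-0.39 ± 0.08, adjusted p = 0.0012). The falls between the times of GPI (-0.27, adjusted p = 0.0313) and TPI1 (-0.23, adjusted p = 0.0415) were lost when any 1 of the 4 TGFβ libraries was left out, with adjusted p between 0.0552 and 0.254 for GPI and between 0.114 and 0.31 for TPI1.

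Of the 3 subunit genes of phosphofructokinase, the committed step, 1 passed, and which ones did depended on the fit. PFKP, the platelet type, read 9116 and 8484 in SB, 7813 and 9106 at 3 days and 7101 and 6281 at 7 days, and fell at 7 days against SB (-0.40 ± 0.10, adjusted p = 0.00476). That call was lost without TGFβ 7-day library 2 (adjusted p = 0.0738). Its fall between the times (-0.34, adjusted p = 0.0212) was lost without TGFβ 3-day library 2 (0.186) or TGFβ 7-day library 2 (0.206). PFKM, the muscle type, read 6088 and 6341, 5931 and 5713, and 5574 and 5268 in the same order, where the 7-day log2 fold change of -0.20 missed the threshold (adjusted p = 0.0567). PFKM passed at 7 days with no filter on low values (adjusted p = 0.0475), with equal library totals (0.0194) and after correction for GC content and exon length (-0.34, adjusted p = 0.000686). PFKL, the liver type, read 1554 and 1877 in SB, 1144 and 1599 at 3 days and 1727 and 1416 at 7 days, and its groups overlapped in each comparison.

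The aldolases split fructose 1,6-bisphosphate. ALDOA read 31142 and 31201 in SB, 23704 and 29152 at 3 days and 25163 and 20900 at 7 days, and fell at 7 days (-0.44 ± 0.11, adjusted p = 0.00514; 0.0895 without TGFβ 7-day library 2). ALDOC, the brain-type isozyme, read 1017 and 1364 in SB, 945 and 1058 at 3 days and 1613 and 1472 at 7 days. It rose at 7 days against SB (0.39 ± 0.14, adjusted p = 0.0307) and against 3 days (0.62, adjusted p = 0.00522). The rise against SB was lost without SB library 1 (0.176 on the log2 scale, adjusted p = 0.255), TGFβ 7-day library 1 (adjusted p = 0.166) or TGFβ 7-day library 2 (0.061), and with equal library totals (0.0739). ALDOA remained the major isozyme: ALDOC stood at 0.0333 and 0.0446 of it per kilobase of canonical transcript in SB and at 0.0654 and 0.0718 at 7 days.

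In lower glycolysis 1 of 6 genes was higher and 2 were lower at 3 days and again at 7 days, and 1 was higher and 1 lower between the times. Those that passed were 50%, 50% and 33.3% of the 6, where 29.0%, 54.5% and 33.2% of all genes passed. GAPDH, the oxidizing step and the internal control of the RT-qPCR assays of the study, read 193569 and 173917 in SB, 150847 and 166469 at 3 days and 145441 and 131246 at 7 days. The 3-day value did not pass (log2 fold change -0.21, adjusted p = 0.115), and GAPDH fell at 7 days (-0.41 ± 0.09, adjusted p = 0.00303; 0.0705 without TGFβ 7-day library 2). A ratio to GAPDH would thus be 1.33-fold higher at 7 days than in SB for a transcript with the same normalized count. The annotation names 65 pseudogene copies of GAPDH, 13 of PGAM1 and 6 of LDHA, and only uniquely mapped reads were counted, so the levels of these genes are uncertain where reads match a copy.

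ENO1, the main enolase, read 119753 and 122808 in SB, 92170 and 97237 at 3 days and 83453 and 77702 at 7 days. It fell at 3 days (-0.36 ± 0.08, adjusted p = 0.00594; 0.0706 without TGFβ 3-day library 1) and at 7 days (-0.59 ± 0.08, adjusted p = 7.76e-05). The fall between the times (-0.23, adjusted p = 0.0438) was lost when any 1 of the 4 TGFβ libraries was left out (adjusted p between 0.11 and 0.34). ENO2, the neuronal isozyme, followed another course: it read 1763 and 2370 in SB, 906 and 990 at 3 days and 1736 and 1678 at 7 days. It dropped by 1.11 (log2) in the first 3 days (adjusted p = 5.67e-05) and rose by 0.85 from 3 to 7 days (adjusted p = 0.000713), and its 7-day value against SB did not pass (-0.26, adjusted p = 0.112).

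PKM, pyruvate kinase, read 144128 and 141210 in SB, 175375 and 186906 at 3 days and 215514 and 200756 at 7 days. It rose 1.27-fold at 3 days (log2 fold change 0.34 ± 0.08, adjusted p = 0.00879; 0.086 without TGFβ 3-day library 2) and 1.46-fold at 7 days (0.54 ± 0.08, adjusted p = 0.000182). Between the times the value was 0.20 (adjusted p = 0.0842). The table holds 1 value for the gene, so its M1 and M2 isoforms were not analysed here. PGK1, the first ATP-yielding enzyme, read 22319 to 25046 over all 6 libraries, and PGAM1, the mutase after it, 2828 to 3382. Neither passed in any comparison of the fit reported here. PGAM1 had a 7-day value of -0.20 against SB (adjusted p = 0.0656), where the libraries did not overlap. That value passed with no filter on low values (adjusted p = 0.0405) and with equal library totals (-0.25, adjusted p = 0.0196).

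Of the lactate genes, the dehydrogenase subunits parted at 7 days. LDHA, the subunit that favors lactate formation, read 56303 and 58482 in SB, 50846 and 47406 at 3 days and 53297 and 56546 at 7 days. LDHA passed in no comparison of the fit reported here (adjusted p = 0.0536 at 3 days and 0.522 at 7 days against SB). At 3 days it passed with equal library totals (-0.28, adjusted p = 0.0161) and after correction for GC content and exon length (-0.27, adjusted p = 0.00476). LDHB, the subunit that favors pyruvate, read 36449 and 35723 in SB, 31970 and 29475 at 3 days and 24141 and 25325 at 7 days. LDHB fell at 7 days (-0.55 ± 0.08, adjusted p = 0.000122). Its fall at 3 days (-0.23, adjusted p = 0.0441) was lost when any 1 of the 4 libraries compared was left out (0.058 to 0.278), and with median-of-ratios or upper quartile scaling, the replicate block or those 4 libraries alone (0.0647 to 0.102). The fall between the times (-0.31, adjusted p = 0.0109) was lost without TGFβ 3-day library 1 (0.115), TGFβ 7-day library 1 (0.123) or TGFβ 7-day library 2 (0.0653). The LDHA to LDHB ratio per kilobase of canonical transcript was 0.898 and 0.952 in SB, 0.925 and 0.935 at 3 days and 1.28 and 1.30 at 7 days. The order of the pair on that scale thus turned over at 7 days. Per kilobase of all annotated exons the ratio was 0.765 and 0.81 in SB and 1.09 and 1.10 at 7 days. On the counts as deposited, LDHA read above LDHB in every library, so the order did not turn over there.

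The monocarboxylate transporters carry lactate and a proton across the membrane. SLC16A1 (MCT1) read 6831 and 6724 in SB, 7554 and 6608 at 3 days and 5832 and 6068 at 7 days. It was lower at 7 days than at 3 days (-0.25, adjusted p = 0.047). That call was lost without TGFβ 3-day library 1 (-0.15, adjusted p = 0.367), TGFβ 7-day library 1 (0.24) or TGFβ 7-day library 2 (0.147). SLC16A3 (MCT4), the exporter of glycolytic cells, read 2201 and 2720, 2305 and 3111, and 3556 and 2773 in the same order. Its 7-day value of 0.36 ± 0.16 did not pass (adjusted p = 0.071), but the call depended on the fit. SLC16A3 passed at 7 days with upper quartile scaling (adjusted p = 0.0436), the replicate block (0.0295) or only the 4 libraries compared (0.032). It also passed after correction for GC content and exon length (0.16, adjusted p = 0.0397).

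**Figure D4:**
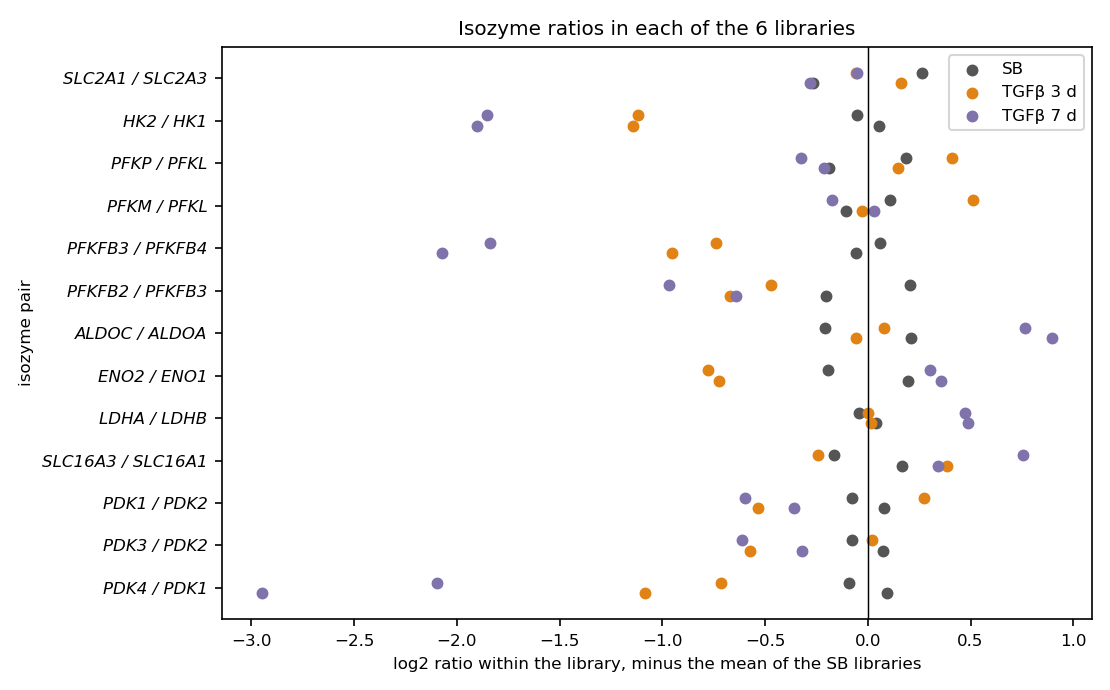
Each point is the log2 ratio of 2 isozymes within 1 library, less the mean of that ratio in SB. HK2 to HK1 and PFKFB3 to PFKFB4 lie left of 0 in all 4 TGFβ libraries, LDHA to LDHB lies right of 0 at 7 days, and PDK1 to PDK2 overlaps between SB and 3 days.

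The pyruvate dehydrogenase kinases, which switch off the entry of pyruvate into the citric acid cycle, divided by isozyme and time. PDK4, the starvation-induced kinase, was the lowest of the 34 genes, with 55 and 78 counts in SB, 35 and 22 at 3 days and 16 and 9 at 7 days. It fell at 3 days (-1.21 ± 0.37, adjusted p = 0.0274) and further by 7 days (-2.35 ± 0.37, adjusted p = 0.000206). The 3-day fall was lost without SB library 2 (adjusted p = 0.141) or TGFβ 3-day library 2 (0.168), and the fall between the times (-1.14, adjusted p = 0.032) without TGFβ 3-day library 1 (0.218) or TGFβ 7-day library 2 (-0.76, adjusted p = 0.226). PDK3 read 894 and 1107 in SB, 740 and 710 at 3 days and 1079 and 1187 at 7 days. It fell at 3 days (-0.46 ± 0.12, adjusted p = 0.016), a call lost without SB library 2 (-0.30, adjusted p = 0.0964) or TGFβ 3-day library 2 (0.0707). It rose from 3 to 7 days (0.64, adjusted p = 0.00255), and the 7-day values overlapped those of SB.

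PDK1, a HIF-induced kinase, read 1119 and 1392 in SB, 1108 and 916 at 3 days and 1364 and 1450 at 7 days. It did not pass against SB at 3 days (adjusted p = 0.0978) or 7 days (0.283), and rose between the times (0.48, adjusted p = 0.0153). That rise was lost without TGFβ 3-day library 2 (0.12), TGFβ 7-day library 1 (0.0544) or TGFβ 7-day library 2 (0.107). PDK2, the widely expressed kinase, read 226 and 252 in SB, 175 and 254 at 3 days and 396 and 356 at 7 days. It rose at 7 days against SB (0.65 ± 0.18, adjusted p = 0.00992; 0.0581 without SB library 1 and 0.0748 without TGFβ 7-day library 1). It also rose against 3 days (0.83, adjusted p = 0.00541; 0.56 with adjusted p = 0.058 without TGFβ 3-day library 1, and adjusted p = 0.051 without TGFβ 7-day library 1).

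Of the 5 pentose phosphate genes, 1 passed. That is 0% at 3 days, 20% at 7 days and 20% between the times, where 29.0%, 54.5% and 33.2% of all genes passed. RPIA, which isomerizes ribose 5-phosphate, read 2868 and 2538 in SB, 2519 and 2514 at 3 days and 1590 and 1586 at 7 days. The 3-day value did not pass (-0.10, adjusted p = 0.458), and RPIA fell at 7 days against SB (-0.76 ± 0.09, adjusted p = 3.33e-05) and against 3 days (-0.66 ± 0.09, adjusted p = 0.000414). RPE, the epimerase, read 2117 to 2395 over the 6 libraries, TKT, transketolase, 14959 to 20677, TALDO1, transaldolase, 3889 to 5334, and PGLS, the lactonase, 457 to 786. For PGLS the 7-day log2 fold change was 0.28 (adjusted p = 0.15), and for TALDO1 the value between the times was -0.29 (adjusted p = 0.0659).

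Enzymes of the pentose phosphate pathway outside the 34 genes were read from a list of 10, of which 8 were tested. At 3 days 1 was higher and none lower, with 0 to 2 that passed under the alternatives. At 7 days 2 were higher and 4 lower, and 3 passed without TGFβ 7-day library 2. Between the times 1 was higher and 4 lower, and 2 or 3 passed when any 1 of the 4 TGFβ libraries was left out. In the fit with all libraries, 12.5%, 75% and 62.5% of the 8 passed, where 29.0%, 54.5% and 33.2% of all genes did. H6PD, an NADPH-yielding enzyme of the endoplasmic reticulum, read 984 and 1428 in SB, 1250 and 1398 at 3 days and 2355 and 2152 at 7 days. It rose at 7 days (0.92 ± 0.15, adjusted p = 0.000288). PGD, an NADPH-yielding enzyme of the cytosol, read 5474 and 5385, 4671 and 5036, and 3953 and 3685 in the same order and fell at 7 days (-0.51 ± 0.08, adjusted p = 0.000342). The SB and 3-day values overlapped for H6PD and not for PGD, and the 7-day values of both stood apart. PGM2, which interconverts phosphates of pentoses, fell by 0.38 at 7 days (adjusted p = 0.00656).

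Of 12 genes for the entry of pyruvate into mitochondria and the first step beyond, all were tested. At 3 days 1 was higher and none lower (1 and 2 when library totals were set equal), and at 7 days 2 were higher and 6 lower. Those that passed were 8.33% and 66.7% of the 12, where 29.0% and 54.5% of all genes passed. The 7-day count of 8 was 5 without SB library 1 or TGFβ 7-day library 1. MPC1, a subunit of the mitochondrial pyruvate carrier, fell by 0.75 at 7 days on the log2 scale (adjusted p = 0.000371), and DLAT, a subunit of pyruvate dehydrogenase, by 0.67 (adjusted p = 3.64e-05). CS, citrate synthase, fell by 0.67 (adjusted p = 5.84e-05). PDP1, the phosphatase that opposes the PDK kinases, rose by 0.65 ± 0.14 (adjusted p = 0.00174).

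HIF target genes outside glycolysis were read from a list of 25, of which 22 were tested. At 3 days 6 were higher and 5 lower (5 and 7 when library totals were set equal), and at 7 days 15 were higher and 4 lower. Between the times 13 were higher and 3 lower, and 10 passed in all without TGFβ 7-day library 2. In the fit with all libraries, 50%, 86.4% and 72.7% of the 22 passed, where 29.0%, 54.5% and 33.2% of all genes did. The median log2 fold change of the 22 was 0.02 at 3 days and 0.52 at 7 days, beside -0.15 and -0.13 for the 34 genes. DDIT4, a stress-induced inhibitor of mTORC1, read 1353 and 2164 in SB, 1544 and 1640 at 3 days and 6154 and 5783 at 7 days (1.80 ± 0.17, adjusted p = 3.44e-06). NDRG1 (1.31), P4HA2 (1.26), a collagen prolyl hydroxylase, and ANGPTL4 (adjusted p = 0.000525) also rose at 7 days. The 4 lower at 7 days were LOX (-0.92), BNIP3 (-0.46), AK4 (-0.32) and STC2 (-0.32). The 5 lower at 3 days were BNIP3 (-0.88), AK4 (-0.66), VEGFA (-0.59), VLDLR (-0.51) and EGLN1 (-0.30). Of these, VEGFA (0.68) and VLDLR (0.51) were higher at 7 days. ANGPTL4, also a direct TGFβ target, had its highest values at 3 days (1671 and 2154, against 420 and 306 in SB and 811 and 633 at 7 days). HIF1A, the oxygen-regulated subunit, fell at 3 days (-0.42, adjusted p = 0.00293) and had a value of -0.01 at 7 days (adjusted p = 0.915). EPAS1 (HIF2α) fell by 2.05 at 7 days (adjusted p = 4.61e-08). ARNT, another HIF subunit, rose at 3 days (0.32, limma adjusted p = 0.0159) and at 7 days (0.73, adjusted p = 2.90e-05). MYC fell by 1.15 at 7 days (adjusted p = 9.91e-07). HIF activity is set at the protein level and was not measured.

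**Figure D5:**
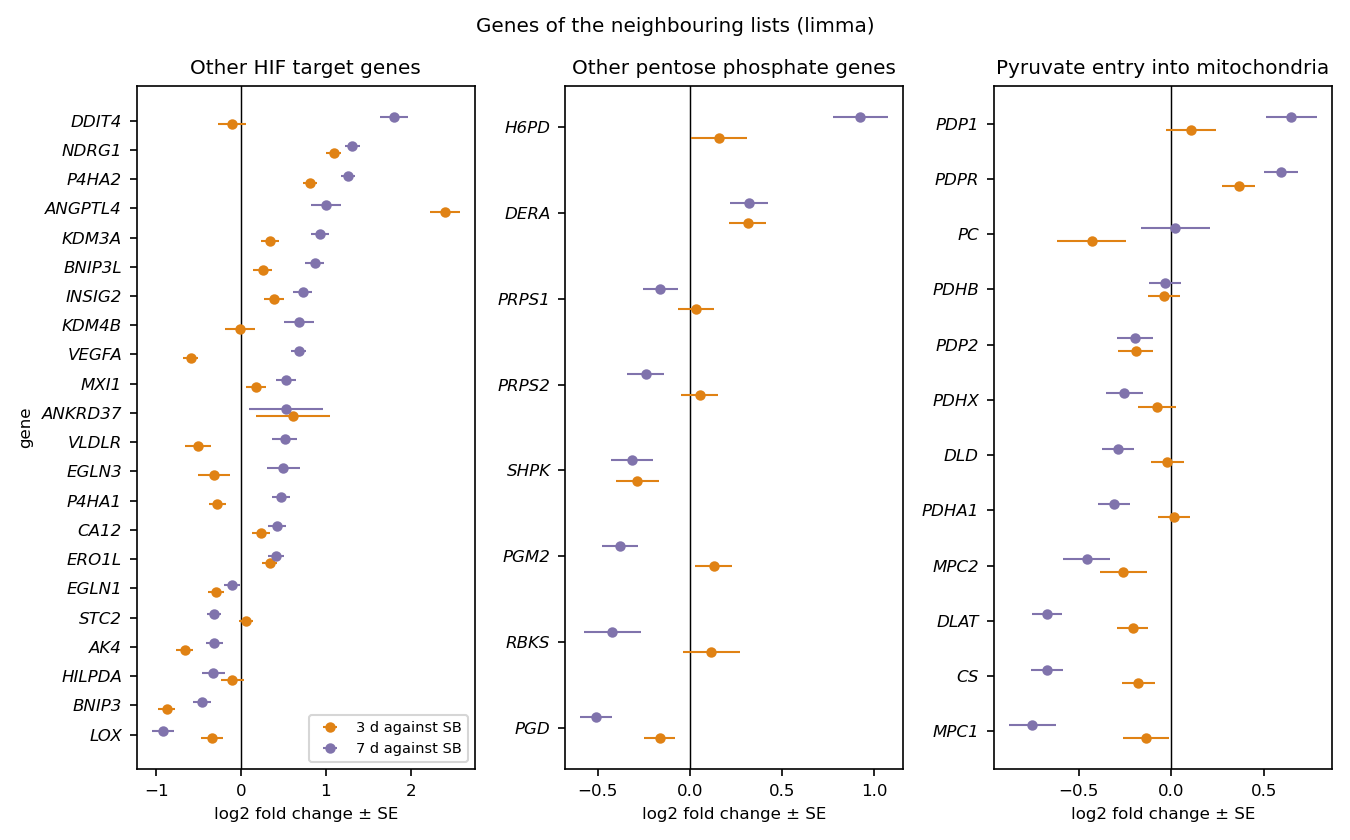
Points give the log2 fold change against SB with its standard error for the tested genes of 3 further lists, at 3 days (orange) and 7 days (purple). DDIT4 lies near 0 at 3 days and at 1.80 at 7 days, H6PD lies at the upper end of their list at 7 days, and MPC1, CS and DLAT at the lower end of theirs.

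The gap between the libraries of a group followed base composition in part. Across the 34 genes, the log2 gap between library 1 and library 2 correlated with GC content at r = -0.87 at 3 days, 0.43 at 7 days and -0.02 in SB, beside -0.54, 0.48 and -0.17 across 13880 genes (a description, since genes of 1 library pair are not independent). The GC-rich genes PFKL, PGLS, SLC16A3, PDK2, ALDOA and TKT had wide gaps of this kind. When GC and exon length trends were removed from each library by loess, 17, 26 and 24 of the 34 genes passed in the 3 comparisons. The share of all genes that passed under this correction is not given. These counts thus cannot be read as a trait of the pathway. PFKL then passed against SB with values of -0.32 (3 days, adjusted p = 0.00678) and -0.34 (7 days, adjusted p = 0.00265), and TKT with -0.27 (adjusted p = 0.00613) and -0.34 (adjusted p = 0.000875). LDHA passed at 3 days alone (-0.27, adjusted p = 0.00476).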

How the data were processed

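RNA-seq of polyA RNA from H2087-LCC cells (6 libraries, 3 groups of 2; groups from the sample titles) was analysed. The authors mapped read pairs to hg19 with STAR, assigned the uniquely mapped ones to genes with HTSeq 0.6.1p1 and normalized the counts by library size with DESeq2. The deposited values are these normalized counts rounded to whole numbers, recorded here as a score because they are not raw reads, and 1316 of 21293 genes are at 0 in every library. Because raw counts are needed for a count test, log2(value + 1) was fitted for 14395 genes (mean value 10 or more) with limma 3.58.1 (R 4.3.3, empirical Bayes with a trend, 3 residual degrees of freedom, 6 libraries in 1 fit), with Benjamini-Hochberg adjustment at 0.05. The steps were tested on simulated data with known changes.

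The 34 genes and the further lists were chosen with earlier results of these data known. From each further list up to 4 genes per comparison were to be named, those with the largest changes among genes that passed and averaged 100 or more. Not every such gene was named: PHGDH of the branch pathways and GAPDHS of the isozymes were left out, among others. Single genes such as HIF1A, MYC and CDH1, and the lower HIF targets, were named after their values were seen. A few genes are not reported here, and the lists were counted without them. Symbols were matched to GENCODE on GRCh37 (18435 current, 1311 older, 1547 not matched). Promoter windows came from RefSeq, GRCh38.p14. The alternatives were 2 pseudocounts, 2 filters, 3 scalings, no trend, only the 4 libraries compared, the replicate number as a block, a loess correction (span 0.5) for GC content and exon length, and each library left out. Depth estimates cover counting error only. Figures used matplotlib 3.10.9.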

Additional observations from a re-analysis of the deposited data

Results flagged for a closer look

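Among the 34 genes, 5 had values against SB of opposite sign at the 2 times and a difference between the times that passed the test (limma, adjusted p under 0.05), where 8.96% of all genes tested met both conditions. ALDOC stood at -0.24 (log2) after 3 days and 0.39 after 7 days, with a difference of 0.62 (adjusted p = 0.00522). PDK2 had -0.18 and 0.65, with a difference of 0.83 (adjusted p = 0.00541), and PDK3 -0.46 and 0.19, with a difference of 0.64 (adjusted p = 0.00255). PDK1 had -0.31 and 0.17, with a difference of 0.48 (adjusted p = 0.0153), and SLC16A1 0.06 and -0.19, with a difference of -0.25 (adjusted p = 0.047). Against SB itself, only PDK3 at 3 days and ALDOC and PDK2 at 7 days were past the threshold among these values. Each difference was lost in at least 1 alternative, and the opposite signs did not hold in every alternative for 4 of the 5. After the GC and length correction the 7-day values of PDK1 (-0.076) and PDK3 (-0.039) and the 3-day value of SLC16A1 (-0.0025) changed sign, and without TGFβ 3-day library 1 the 3-day values of PDK2 (0.090) and SLC16A1 (-0.036) did.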

How the results depend on the processing

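Over the alternatives that kept all libraries, 1019 values of the 34 genes kept their direction and their side of the threshold, 57 lost it, 35 passed it newly and 8 changed sign. With 1 library left out the numbers were 325, 51, 14 and 18. No value that changed sign had passed the threshold. With no filter on low values 5 genes passed at 3 days against SB and 4 between the times, and without the trend 6 and 7. With 1 library left out, the count between the times ran from 9 to 14. The replicate numbers did not pair the libraries (correlations of deviations of 0.14, -0.10 and -0.29), and with the replicate block 11, 20 and 16 genes passed, against 12, 19 and 18. Without the filter the further lists had fewer calls too, 6 against 11 HIF targets at 3 days and 6 against 16 between the times, 1 against 5 other pentose phosphate genes between the times and 5 against 9 isozymes at 7 days. The share of all genes that passed under each alternative is not given, so the shifts cannot be read as a trait of these genes or lists. The cause of these shifts was not tested.

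Under the GC and length correction the sign changed at 3 days for SLC16A1 (-0.0025) and PGLS (0.00076), at 7 days for PDK1 (-0.076) and PDK3 (-0.039), and between the times for PFKL (-0.017), PFKFB2 (-0.030), SLC16A3 (-0.00054) and TKT (-0.070). With 1 library left out, the 3-day log2 fold change ran from -0.118 to 0.314 for SLC2A3, from -0.171 to 0.0502 for PFKP, from -0.0656 to 0.0233 for PGK1, from -0.0365 to 0.157 for SLC16A1 and from -0.0861 to 0.346 for SLC16A3. It ran from -0.445 to 0.0896 for PDK2, from -0.359 to 0.0873 for PGLS, from -0.0718 to 0.0292 for RPE and from -0.0200 to 0.269 for TALDO1. At 7 days the range was -0.270 to 0.0161 for PFKL, -0.113 to 0.0275 for PFKFB2 and -0.257 to 0.0011 for TKT. Between the times it was -0.0321 to 0.451 for PFKL, -0.0213 to 0.119 for PFKFB2 and -0.0038 to 0.268 for TKT. Leaving out a library leaves its group with 1, which is then assumed to vary like the other groups. Depth limits PDK4 and FBP1 at 7 days, with 9 to 27 counts.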

Other observations

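Sugar branch pathways next to glycolysis also changed in named members. From a list of 21 genes of the hexosamine, glycogen, polyol, glycerol phosphate and serine branches, all tested, 2 were higher and 6 lower at 3 days. At 7 days 5 were higher and 8 lower (3 and 8 when library totals were set equal). Those that passed were 38.1% and 61.9% of the 21, where 29.0% and 54.5% of all genes passed. GFPT2, an isozyme of the entry enzyme of the hexosamine pathway, read 956 and 1039 in SB, 4232 and 4357 at 3 days and 7506 and 7101 at 7 days, and rose by 2.11 and 2.87 on the log2 scale (limma, adjusted p = 1.02e-08 and 3.42e-10). Its isozyme GFPT1 fell at 7 days (-0.44, adjusted p = 0.00103). GNPNAT1, a later enzyme of that pathway, rose at 3 days (1.10, adjusted p = 4.96e-06) and fell from 3 to 7 days (-0.92, adjusted p = 6.02e-05). SORD and KHK, which make and use fructose in the polyol route, fell by 1.43 each at 7 days, and PYGL, a glycogen phosphorylase, by 1.14. GFPT1 was named after its values were seen.

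Of 27 further isozymes and partners of the 34 genes, 17 were tested. At 3 days 5 were higher and 2 lower, and at 7 days 7 were higher and 2 lower. Those that passed were 41.2% and 52.9% of the 17, where 29.0% and 54.5% of all genes passed. BPGM, which makes 2,3-bisphosphoglycerate from a glycolytic intermediate, read 771 and 565 in SB, 4804 and 4365 at 3 days and 2990 and 2972 at 7 days. It rose at both times (2.79 and 2.17, adjusted p = 2.58e-08 and 8.47e-08). The transporter SLC2A10 rose at 3 days (0.83, adjusted p = 0.00176) and at 7 days (2.26), and SLC2A12 fell at 3 days (-2.33) and rose from 3 to 7 days (2.09). The glucose 6-phosphate transporter SLC37A4, of the gluconeogenesis list (6 genes, 3 tested), fell at 3 days (-0.76) and 7 days (-0.86). Of the 3 tested, 2 were lower at 3 days and 1 at 7 days. That is 66.7% and 33.3%, where 29.0% and 54.5% of all genes passed in either direction.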
